A study of Mus musculus with 10 samples.

Results

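The comparison described here split 10 libraries of mouse visceral fat by RNA of a ciliated, duct-like epithelium. The libraries were chosen by the counts of Foxj1, the transcription factor that switches on the genes of motile cilia. Libraries with at least 5 counts of it per 1e6 counted reads (CPM) were set against libraries with less than 1 CPM. This put 5 of the 10 libraries on each side, WT2, WT3, WT4, WT5 and tg2 with Foxj1 above the threshold and WT1, tg1, tg3, tg4 and tg5 below it. They are called the high-Foxj1 and the low-Foxj1 libraries. Because the counts themselves chose the sides, every difference between the sides is a description of these 10 libraries and carries no test. The labels, which the counts did not set, were tested with the side as a second term.

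All libraries came from male mice, 10 weeks old and kept for 8 weeks on chow, with 5 mice in each labelled group and 1 poly(A) library for each mouse. The first group is wild type (WT1 to WT5) and the second, aADM2-tg (tg1 to tg5), overexpresses the peptide hormone adrenomedullin 2 in fat according to the title of the series. Neither the promoter behind the transgene nor the fat depot is named in the sources used here. Adm2 had 2 counts in WT3 and none in the remaining 9, below the 3 counts that a count of 0 allows, so the labels could not be checked by it. A first header line over the columns names the groups in the opposite sense to the labels, and the labels were followed. Replicates are separate mice. Counted reads ranged from 16030435 to 18214504 a library, so that 3 counts corresponded to 0.165 to 0.187 CPM. The labels give mature adipocyte as the cell type. The 18 adipocyte marker genes summed to 48795 to 66403 CPM in all 10 libraries, beside 10 blood endothelium markers at 1234 to 1947 CPM and 10 macrophage markers at 576 to 1242 CPM, so RNA of other cells of fat was present too.

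Motile cilia are built on microtubule doublets that carry dynein arms, radial spokes and a central pair of microtubules, and multiciliated cells make these parts under Foxj1 and the RFX transcription factors. In the male genital tract such cells line the efferent ducts, which lead from the testis to the epididymis and take up much of the fluid that leaves the testis. The epididymis itself secretes proteins onto sperm, and in the male mouse a large visceral fat pad is attached to it. Pax8, Epcam, Cdh16 and Cldn2, the other 4 markers given with the split, are a transcription factor of kidney and genital ducts, an epithelial adhesion molecule, a cadherin of kidney and duct epithelium, and a claudin of leaky tight junctions. In RNA from whole tissue, fewer cells of a type and less RNA in each cell cannot be told apart.

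The RFX factors bind the X-box, a palindrome that ciliary promoters often hold. Promoters of ciliary genes are shown because their list had the largest number of genes called between the sides, 29 of 33 tested. The duct identity list had 18 of 20 called. The motif searched was GTTGCC or, on the other strand, GGCAAC, the core of 1 arm of the X-box, chosen after other forms had been tried. It was looked for in windows from 250 bases before to 50 bases after the transcription start (RefSeq, GRCm38.p6). The 3 ciliary genes with a match that differed most between the sides were Spag6l (chr16:16829314-16829613, minus strand), Cfap44 (chr16:44394549-44394848, plus strand) and Pifo (chr3:106001448-106001747, minus strand). Spag6l encodes a protein of the ciliary central pair, Cfap44 a protein that tethers inner dynein arms, and Pifo a protein of the base of primary cilia. Their windows read 5′ to 3′ on the gene's strand as follows, with the motif in capitals.
Spag6l: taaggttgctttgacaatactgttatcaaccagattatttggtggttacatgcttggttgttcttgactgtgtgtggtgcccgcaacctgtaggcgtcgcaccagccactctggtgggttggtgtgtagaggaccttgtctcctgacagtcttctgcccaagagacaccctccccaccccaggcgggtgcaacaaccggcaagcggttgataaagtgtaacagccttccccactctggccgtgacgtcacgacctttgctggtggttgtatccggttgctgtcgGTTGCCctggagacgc
Cfap44: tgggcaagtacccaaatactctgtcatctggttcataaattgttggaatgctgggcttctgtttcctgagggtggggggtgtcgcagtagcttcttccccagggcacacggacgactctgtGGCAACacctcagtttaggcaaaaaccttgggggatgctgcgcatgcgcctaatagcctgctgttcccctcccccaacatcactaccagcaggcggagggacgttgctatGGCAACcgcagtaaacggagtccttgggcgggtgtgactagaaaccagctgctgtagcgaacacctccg
Pifo: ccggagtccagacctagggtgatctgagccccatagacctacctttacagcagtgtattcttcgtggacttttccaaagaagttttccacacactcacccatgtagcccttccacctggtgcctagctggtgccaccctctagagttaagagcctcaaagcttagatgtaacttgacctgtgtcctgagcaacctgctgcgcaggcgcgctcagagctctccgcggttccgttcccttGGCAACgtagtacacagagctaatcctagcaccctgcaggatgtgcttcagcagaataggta
The motif stood once in the windows of Spag6l and Pifo and at 2 places in that of Cfap44. It was present in 17 of 35 windows of the motile cilia list (48.6%, from 16 of 28 genes with a window), in 0 of 21 windows of the duct identity list and in 4111 of all 32851 windows (12.5%). A match is a run of letters and says nothing of binding.

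Foxj1 (ENSMUSG00000034227, chromosome 11, 116221530 to 116226225, minus strand, in coordinates whose build the files do not name) stood at 57.2 CPM in tg2, 37.4 in WT3, 32.9 in WT2, 26.0 in WT4 and 10.9 in WT5. It stood at 0.0554 CPM in WT1, 0 in tg1, 0.0624 in tg3, 0.110 in tg4 and 0.0596 in tg5. The library just inside the upper threshold was thus WT5 at 10.9 CPM, and the one nearest below the lower threshold was tg4 at 0.110 CPM, with no library between 1 and 5 CPM. Pax8 (ENSMUSG00000026976, chromosome 2, 24310572 to 24365611, minus strand) followed the same division, at 10.9, 11.8, 9.59, 5.79 and 20.5 CPM in WT2 to WT5, then tg2. It was at 0 CPM in tg1, tg3 and tg4, at 0.0554 in WT1 and at 0.536 in tg5. The low-Foxj1 library tg5 therefore held 9 counts of Pax8, more than the limit of 3 counts.

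Epcam was at 38.4, 34.7, 30.5, 11.5 and 45.1 CPM in WT2 to WT5, then tg2, and at 0 to 1.37 CPM in the low-Foxj1 libraries. Cdh16 was at 35.4, 30.4, 25.9, 13.5 and 47.2 CPM in the same 5 libraries, at 0 in WT1, tg1, tg3 and tg4 and at 1.85 in tg5. Cldn2 was at 64.2, 58.3, 54.7, 25.9 and 98.8 CPM, against 0 to 0.275 CPM in WT1, tg1, tg3 and tg4 and 2.74 in tg5. For all 5 markers tg2 was the highest and WT5 the lowest of the high-Foxj1 libraries. No marker overlapped between the sides, which for Foxj1 was fixed by the split. The 5 markers summed to 67.5 to 269 CPM on the high side, to 0.111 to 0.540 CPM in 4 low-Foxj1 libraries and to 6.55 CPM in tg5.

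**Figure D1:**
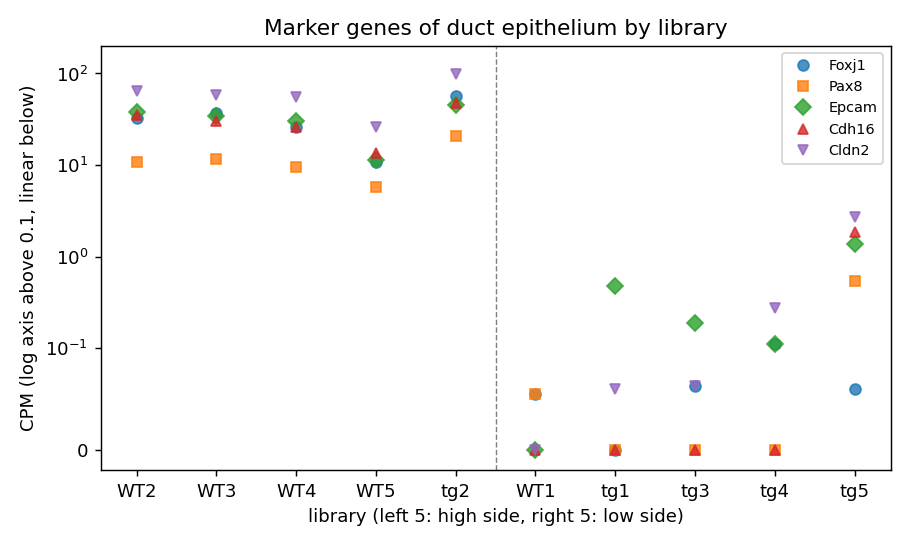
CPM of the 5 marker genes in each of the 10 libraries, on an axis that is logarithmic above 0.1 CPM and linear below; each point is 1 gene in 1 library, and the broken line parts the sides. In the 5 libraries on the left every marker lies between 5.79 and 98.8 CPM, and on the right the highest points are those of tg5, up to 2.74 CPM.

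Across all genes the sides were fitted with the label group as second term (edgeR, quasi-likelihood, adjusted p under 0.05 used as the threshold for calling a gene). Of 16591 genes 1253 were called higher in the high-Foxj1 libraries (7.55% of those tested) and 154 lower (0.928%), 1407 in all (8.48%). The differences upward were large, with a median log2 difference of 2.42 among the higher genes, and 977 of them were at least 2-fold higher. The differences downward were small, with a median of -0.41, and 4 genes were at least 2-fold lower. The CPM of the 2 sides did not overlap for 1103 of the higher genes and 87 of the lower, beside 2002 (12.1%) and 254 (1.53%) of all tested genes. Since Foxj1 of the same libraries chose the sides, these counts describe how much moved with it. They also rest on tg2, the only aADM2-tg library above the Foxj1 threshold: without it 443 genes were called higher and 5 lower.

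By number, the motile cilia list had the most genes called. Of 34 listed genes 33 passed the expression filter, and 29 of these were called higher and none lower. The 33 had a median log2 difference of 5.26 against -0.02 over all tested genes. Foxj1, which set the sides, is among the 29 and in the sums of the list. The list summed to 262 to 615 CPM in the high-Foxj1 libraries and 76.6 to 107 CPM in the others. Tppp3, Rfx2, Tekt2 and Ccno were the 4 that were not called. Tppp3, a microtubule protein that fat also expresses, was at 42.7 to 57.7 CPM in the high-Foxj1 libraries and 36.1 to 62.7 CPM in the low. Mcidas, an inducer of the multiciliated state, did not pass the filter, with at most 0.450 CPM. Gmnc, which acts above Mcidas and was picked after its values were seen, was at 2.30 to 12.7 CPM on the high side and 0 to 0.0600 on the low.

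Among the motors, the outer arm dynein heavy chain Dnah5 was at 37.6, 30.8, 30.8, 10.1 and 39.9 CPM in WT2 to WT5, then tg2, and at 0 to 0.111 CPM in the low-Foxj1 libraries. Dnah11, another outer arm heavy chain, was at 23.2, 19.3, 18.1, 7.19 and 28.8 CPM, with 1 count in WT1 and none in the transgenic libraries of the low side. A second gene, Cdca7l, overlaps Dnah11 on the opposite strand, and the strand setting of the counting is not known here. For both heavy chains WT5 held the least and tg2 the most of the high-Foxj1 libraries. Cfap44, whose promoter is given above, was at 52.1, 56.0, 43.5, 16.6 and 69.0 CPM on the high side and at 0.0600 to 0.596 CPM on the low. Spag6l was at 11.2, 9.63, 6.72, 3.82 and 9.27 CPM against 0 to 0.119 CPM. Here WT2, and not tg2, was highest.

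The radial spoke gene Rsph4a was at 7.25 to 25.5 CPM in the high-Foxj1 libraries and 0 to 0.180 CPM in the others. Its partner Rsph1 was at 8.69 to 22.1 CPM against 0.179 to 0.720, with WT2 highest and WT4 lowest. Rsph9, also a spoke gene, differed less, at 3.26 to 5.00 against 1.67 to 2.68 CPM. The cilia genes thus ranged from those near 0 outside the high-Foxj1 libraries to those with a level of their own in fat. Ccdc39, part of the ruler that spaces the dynein arms, belonged to the second kind, at 13.6 to 29.2 CPM against 4.55 to 9.83 CPM. Rfx3, an RFX factor with roles outside motile cilia, was at 14.7 to 20.1 CPM against 6.11 to 9.85 CPM. For both genes the sides stayed apart.

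The 10 genes with the largest fitted differences, among called genes whose sides did not overlap and which reached a mean of 1 FPKM, were Mmp7, Ccdc153, Cfap65, Dcdc2a, Sntn, Tmem212, Ush1c, Cbx3-ps8, Klhl14 and Dnah11. Cbx3-ps8 is a pseudogene, whose reads cannot be told with certainty from those of its parent gene. Mmp7, which encodes the matrix protease matrilysin, was at 127 CPM in tg2, 65.0 and 64.6 in WT2 and WT3, and 55.5 and 29.4 in WT4 and WT5, and had 0 counts in all 5 low-Foxj1 libraries. Set against 3 counts in each of those libraries it was at least 389.9-fold higher. Ccdc153 was at 9.04 to 47.8 CPM and at least 165-fold higher by the same floor. Sntn, whose protein sits at the tip of motile cilia, was at least 62.8-fold higher and Tmem212 at least 63.1-fold. Dcdc2a, a doublecortin family gene of ciliated cells, was at 138, 129.8, 111, 45.8 and 198 CPM against 0 to 0.166 CPM. Ush1c (harmonin, a scaffold of microvilli, at least 44.0-fold) and Klhl14 (at least 43.0-fold) each overlap a gene on the opposite strand with at least 10% of their counts. All 10 genes were highest in tg2 and lowest in WT5 within the high side.

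Epithelial identity genes moved with the cilia. Of 24 listed genes 20 passed the filter, 18 were called higher and none lower, with a median log2 difference of 5.57, or 5.23 with Lhx1, which had 0 counts in the low-Foxj1 libraries, set to its bound. Pax8, Epcam, Cdh16 and Cldn2, the markers given with the split, are among the 18 and in the median. The ETS factor Ehf was at 20.9, 18.1, 15.1, 9.16 and 27.9 CPM in WT2 to WT5, then tg2, and at 0 to 0.715 CPM elsewhere. Pax2, the relative of Pax8, was at 0.843 to 4.02 CPM against 0 to 0.238. Both factors shared the division of the 5 markers, highest in tg2 and lowest in WT5. E-cadherin (Cdh1) was at 10.1 to 30.5 CPM against 0 to 0.834 CPM. Prom1, a protein of membrane protrusions, was at 42.7 to 122 CPM against 1.19 to 5.96 CPM. The keratins Krt7 and Krt19 were the 2 tested genes not called, and Krt7 was at 2.43 to 7.09 CPM on the high side and 2.2 to 10.0 on the low. The keratins Krt8 and Krt18 were called higher. Krt8 was at 23.2 to 76.6 CPM against 2.36 to 12.6, and Krt18 at 14.8 to 41.5 against 2.31 to 8.34 CPM. Without tg2 10 of the 20 were called, at a median of 5.19.

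Of the 14 tested genes of fluid and protein uptake 8 were called higher and none lower, at a median log2 difference of 1.13. Without tg2 3 were called, at a median of 0.55. Esr1, the estrogen receptor given further below, is among the 8. The summed list overlapped between the sides, at 1222 to 1318 CPM on the high side and 995 to 1398 CPM on the low. The sodium-proton exchanger Slc9a3 was at 17.1, 12.7, 11.7, 7.02 and 23.2 CPM in the high-Foxj1 libraries in the order used above and at 0 to 0.166 CPM in the others. Cftr, a chloride channel, was at 6.96 to 14.2 CPM against 0.220 to 1.16, and Car2, a carbonic anhydrase, at 7.58 to 16.6 against 1.62 to 2.2. All 3 were apart between the sides, and Cftr was highest in WT2. The endocytic receptor Lrp2 was at 53.7 to 129 CPM against 1.59 to 10.6 CPM. Aqp1 and Car4, which vessels and other cells of fat also express, were not called, and Aqp1 was at 708 to 849 CPM against 715 to 1156. Foxi1 and Atp6v1g3, genes of acid-secreting cells, did not pass the filter. Foxi1 had counts in WT3 (0.532 CPM) and tg5 (0.536 CPM) and none in the other 8 libraries.

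The 1253 genes called higher took 1.78 to 2.78% of counts in the high-Foxj1 libraries and 0.900 to 1.12% in the low. Genes nearly absent from the low-Foxj1 libraries took a smaller share. There were 147 genes with at most 3 counts in every low-Foxj1 library and at least 1 CPM in every high-Foxj1 library, and no gene with the reverse pattern. Together they took 0.174% of counts in tg2, 0.133% and 0.128% in WT2 and WT3, and 0.0991% and 0.0585% in WT4 and WT5. They took at most 0.000600% in any low-Foxj1 library, where the limit of 3 counts kept the share low. Taking each gene's CPM in tg2 as 100%, the median of these genes in WT2 was 78.8%. It was 74.9% in WT3, 57.2% in WT4 and 32.5% in WT5. Foxj1 itself stood at 57.4%, 65.3%, 45.4% and 19.0% of tg2. The number of genes with at least 1 read was 25638 to 27923 in the high-Foxj1 libraries and 23047 to 24426 in the low.

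Within the high side, 758 of the 1253 higher genes (60.5%) had tg2 as the highest and WT5 as the lowest library, as Foxj1 did, beside 2113 of all 16591 tested genes (12.7%) and 5 of the 154 lower genes (3.25%). Of the 147 genes near 0 on the low side 93 had it. WT5 was the lowest for 972 of the higher genes and tg2 the highest for 830. Within aADM2-tg only tg2 stands on the high side. The fit thus favours genes high in tg2 among the higher genes and low in tg2 among the lower. The place of tg2 in this order is therefore partly built in. The split could also be read in pairs of contrasts with no library in common, WT2 to WT5 minus WT1 and tg2 minus the other transgenic libraries. Over all 16591 tested genes the 2 contrasts had a Pearson correlation of 0.84 and a Spearman correlation of 0.45, and 66.5% had the same sign. Genes are not independent replicates, and each contrast has a lone library on 1 side.

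**Figure D2:**
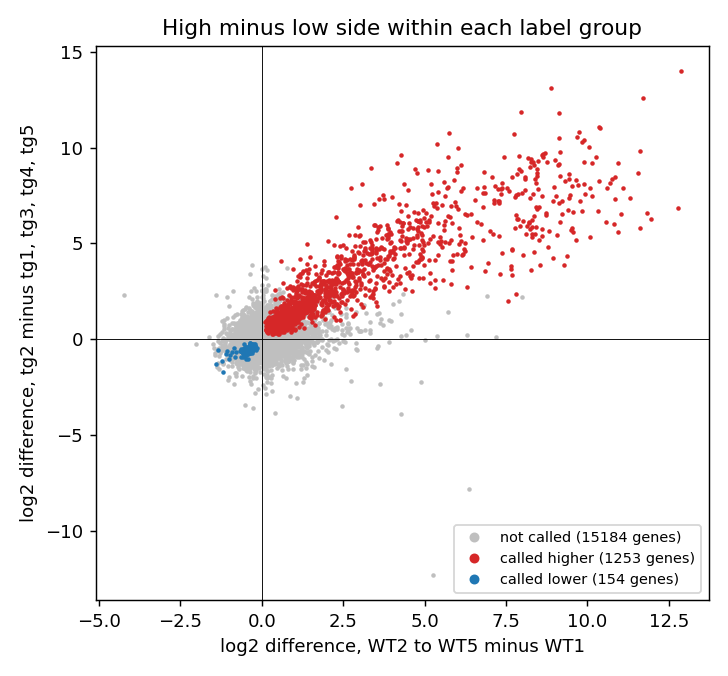
Fitted log2 difference between high-Foxj1 and low-Foxj1 libraries, within WT on the horizontal axis (WT2 to WT5 minus WT1) and within aADM2-tg on the vertical axis (tg2 minus the other 4); each point is 1 of 16591 genes. The 1253 genes called higher (red) extend to the upper right, and the 154 called lower (blue) lie close to the origin at the lower left.

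RNA of male germ cells divided the libraries differently. The 30 male germ cell genes summed to 380.2 CPM in WT2, 355 in WT3 and 405 in WT5, against 43.2 in WT4 and 47.5 in tg2 and 20.0 to 24.8 in the low-Foxj1 libraries. So tg2, the library with the most Foxj1, and WT4 held little of it, and WT5, with the least Foxj1 of its side, held the most. Of its 16 tested members 8 were called higher, at a median log2 difference of 4.19, and without WT2, WT3 and WT5 7 were, at a median of 2.40. Without WT1 2 were called, at a median of 2.59, and without tg2 none, at a median of 5.02. Odf1, a protein of the sperm tail, was at 17.7, 17.8, 1.02, 20.4 and 2.19 CPM in WT2 to WT5, then tg2, and at 0 to 0.166 CPM elsewhere. Tcp11, a gene of late sperm cells, was at 20.4, 23.7, 2.03, 25.7 and 5.24 CPM against 0.0549 to 0.312. Meig1, needed for the formation of the sperm head and tail, was at 15.7, 12.8, 2.09, 12.1 and 3.54 CPM against 0 to 0.277 CPM. Each of the 3 was several times higher in WT2, WT3 and WT5 than in WT4 and tg2, and the sides did not overlap. Spag6l, Rsph1 and Spag17 of the cilia list are also used by sperm tails, and the part of germ cell RNA in their values was not tested. Without WT2, WT3 and WT5 28 of the 33 cilia genes were called higher. That fit leaves WT4 and tg2 on the high side, and both held more germ cell RNA than any low-Foxj1 library. The source of the cilia and duct RNA was not tested.

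Adam7 and Lcn5, which epididymal epithelium secretes or displays and which were picked after their values were seen, marked another pair of libraries. Lcn5 was at 39.3 CPM in WT3 and 67.6 CPM in tg5 and at 0 to 1.74 CPM in the other 8. Adam7 was at 45.1 CPM in WT3, 52.6 in tg5, 10.9 in tg2 and 6.91 in WT5 and at 0 to 1.86 CPM in the remaining 6. This pair crossed the split, with WT3 on the high and tg5 on the low side. Of the 27 listed epididymal secretory genes 4 passed the filter and none was called. Of 10 listed genes of Sertoli and Leydig cells 3 passed it and none was called. The low-Foxj1 library tg5 held more Lcn5 and more Adam7 than any high-Foxj1 library. Without WT3 and tg5, 1167 genes were called higher and 259 lower.

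**Figure D3:**
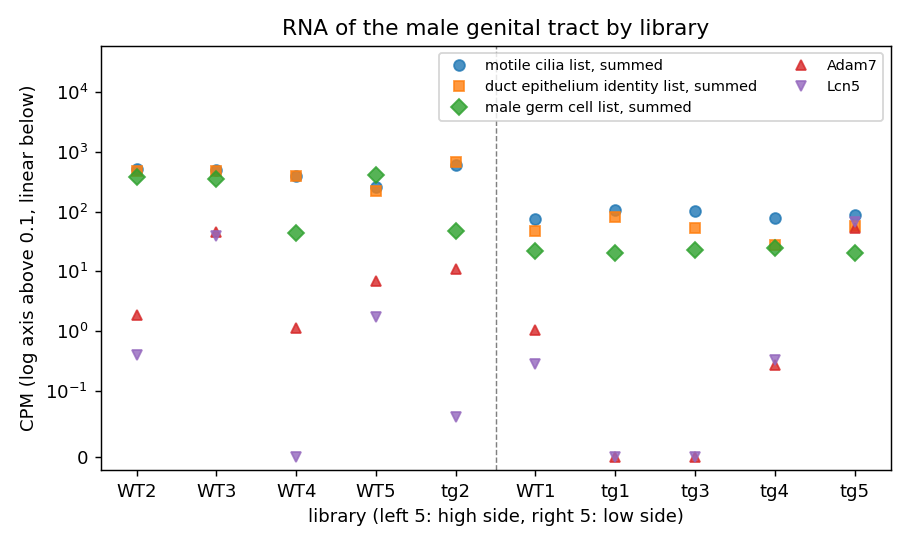
Summed CPM of the motile cilia, duct epithelium identity and male germ cell lists, and CPM of Adam7 and Lcn5, in each of the 10 libraries, on an axis that is logarithmic above 0.1 CPM and linear below. The 3 kinds of RNA parted the libraries differently: cilia and duct genes were high in the 5 on the left, germ cell genes in WT2, WT3 and WT5, and Lcn5 in WT3 and tg5.

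A smaller set of higher genes was already at a clear level in the low-Foxj1 libraries: 219 of the 1253 had a mean of at least 10 CPM there. Adgrg2, an adhesion receptor needed for fluid uptake in the efferent ducts, was at 307, 316, 261, 179 and 354 CPM in WT2 to WT5, then tg2, and at 72.9 to 104 CPM in the low-Foxj1 libraries. The gap junction gene Gja1 was at 157 to 375 CPM against 69.7 to 106. These 2, picked after their values were seen, had means 3.22 and 3.54 times as high on the high side, did not overlap, and were highest in tg2 and lowest in WT5. Of 6 tested genes of sex steroid signalling 3 were called higher, and Esr1 among them also stands on the uptake list. Greb1, an estrogen-responsive gene, was at 8.14 to 42.4 CPM against 0.110 to 0.655, and Srd5a2, which makes dihydrotestosterone, at 5.39 to 22.3 against 0 to 0.953 CPM. Esr1, the estrogen receptor, was at 115, 119, 127, 74.8 and 152 CPM on the high side and 64.3 to 81.7 CPM on the low, where the sides overlapped through WT5.

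Lymphatic endothelium also differed in part. Of 6 markers 3 were called higher and none lower. Prox1, the lymphatic master regulator, was at 9.17, 4.25, 3.61, 5.62 and 4.51 CPM in WT2 to WT5, then tg2, and at 0.780 to 1.44 CPM elsewhere. The chemokine Ccl21a, whose reads may be shared with near-identical Ccl21 copies, was at 18.3 to 41.0 CPM against 7.39 to 15.0, and Mmrn1, a secreted protein of lymphatic vessels, at 13.2 to 34.8 against 5.72 to 8.55. All 3 were highest in WT2 and, unlike the duct markers, lowest in WT4. Lyve1, Flt4 and Pdpn were not called, and Lyve1 was at 42.2 to 66.2 against 20.9 to 63.2 CPM. Without tg2 none of the 6 was called. Ppargc1a, the coactivator of mitochondrial genes, was at 12.5, 13.1, 15.4, 10.3 and 12.8 CPM on the high side and at 3.66 to 7.86 CPM on the low. It was the only one of 7 tested thermogenic genes called, and Ucp1 had at most 0.395 CPM. Without tg2 none of the 7 was called, and without WT4 or tg5 2 were. Of the 26 cell cycle genes Ccnd1 (cyclin D1) alone was called higher, beside 7.55% of all tested genes. It was at 28.8 to 63.0 against 18.0 to 49.5 CPM, and the sides overlapped. None of the 26 was called without WT1, without tg2 or without WT2, WT3 and WT5.

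**Figure D4:**
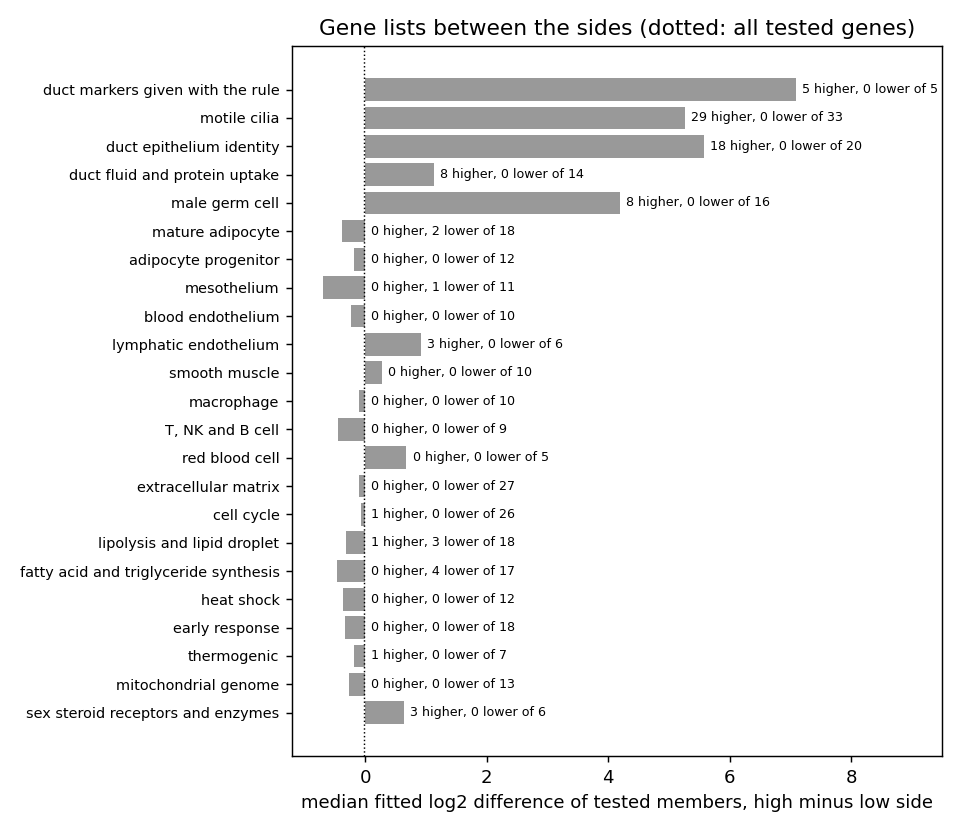
Median fitted log2 difference between the sides of the tested members of each gene list, with the number called higher and lower; the dotted line is the median of all tested genes, -0.02. Cilia, duct identity and germ cell lists reach medians of 4.19 to 5.57, and the fat, vessel, immune and stress lists stay between -0.70 and 0.92.

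The genes called lower included genes of fat at modestly lower levels. Of 18 adipocyte markers 2 were called lower and none higher, with a median log2 difference of -0.38. Plin1, the coat protein of the fat droplet, was at 1682, 1833, 1661, 1768 and 1953 CPM in WT2 to WT5, then tg2, and at 2005, 2401, 2276, 2289 and 2320 CPM in WT1, tg1, tg3, tg4 and tg5. Slc2a4, the insulin-regulated glucose transporter, was at 153 to 191 against 202 to 224 CPM. Both parted the sides, by a gap that was narrow beside the range within them. Without tg2 none of the 18 was called, without WT1, WT4 or tg1 1 was, without WT5 4 and without tg5 5. Of 17 genes of fatty acid and triglyceride synthesis 4 were called lower: Dgat1, Me1, Agpat2 and Fasn. Without WT1 or without tg2 1 was called lower, and without WT3 or without tg5 7 were. Dgat1, which makes triglyceride, was at 174 to 206 against 238 to 275 CPM. Fasn, fatty acid synthase, was at 1645 to 3412 CPM on the high side and 1988 to 4730 on the low, and the sides overlapped. The fitted log2 difference of Fasn, which was named after its values were seen, was -0.78 with the label as second term, and WT1 had more of it than any other library.

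Of the genes named by rule as lowest in the high-Foxj1 libraries, Irs2, an adaptor of the insulin receptor, was at 60.1 to 83.2 CPM against 94.4 to 171 CPM. Slc25a1, the mitochondrial citrate carrier that feeds fatty acid synthesis, was at 203 to 266 against 277 to 348. Grhl1, a transcription factor known from skin, was at 7.03 to 15.5 against 16.4 to 27.4 CPM. The fitted log2 differences of those named ranged from -0.93 for Eef1akmt4 to -0.65 for Slc25a1, and none of them overlapped, which was a condition of the rule. Eef1akmt4 and Cables1 each overlap a gene on the opposite strand. The others were Mfng, Cd209g, Tnfrsf25 and H2bc4, a histone gene with near-identical copies. Extracellular matrix (27 tested), adipocyte progenitor (12), blood endothelium (10), macrophage (10), heat shock (12) and early response genes (18) had no member called in either direction between the sides. When a single library was left out, members of 3 of these lists were called lower, 2 macrophage and 2 heat shock genes without tg4 and 1 progenitor gene without tg1 or tg4.

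The labels and the sides were nearly the same split: 4 of 5 WT libraries were high in Foxj1 and 4 of 5 aADM2-tg libraries were low. With the label as the only term 2285 genes were called higher in aADM2-tg (13.8%) and 2107 lower (12.7%) by edgeR. With the side in the model 576 were called higher (3.47%) and 994 lower (5.99%). Of these, 490 and 952 were also called in the same direction with the label alone. Of the 2285 genes higher with the label alone, 51 (2.23%) were also called lower between the sides, beside 0.928% of all tested genes. Of the 2107 lower, 95 (4.51%) were also called higher between the sides, beside 7.55% of all tested genes. Why fewer genes were called with the side in the model was not tested. A score of the 5 markers in place of the 2 sides gave 1093 higher and 1530 lower. The label term with the side held constant rests on the 2 libraries that depart from their group. Without WT1 it compares tg2 alone with 4 WT libraries, and edgeR called 0 genes, with 932 higher and 976 lower at unadjusted p under 0.05. Without tg2 it called 148 higher and 590 lower. WT1 and tg2 could not be left out together, because label and side then coincide.

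**Figure D5:**
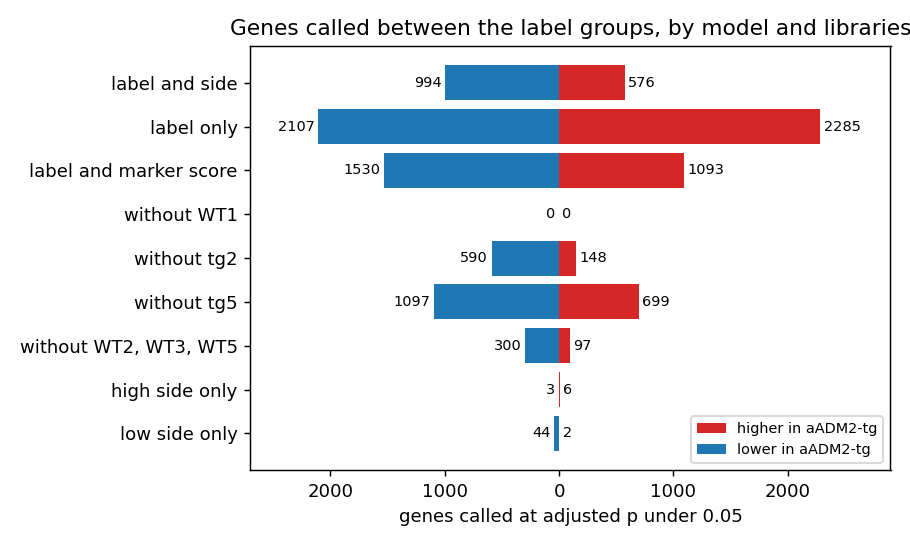
Number of genes called between the labelled groups at an adjusted p under 0.05 (edgeR), higher in aADM2-tg to the right and lower to the left, for different models and sets of libraries. The bars shrink from 2285 and 2107 with the label alone to 576 and 994 with the side as a second term, and to 0 without WT1. Label and side are nearly the same split, and why the bars shrink was not tested.

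Extracellular matrix genes were lower in aADM2-tg whether or not the side was a term. With the side, 19 of 27 were called lower and none higher, at a median log2 difference of -0.90, beside 0.04 over all tested genes. With the label alone it was 21 lower and 1 higher. Col3a1, a fibrillar collagen picked after its values were seen, was at 3425, 4678, 2123, 2704 and 2952 CPM in WT1 to WT5 and at 964, 967, 909, 659.5 and 904 CPM in tg1 to tg5 (edgeR, fitted log2 difference given side -1.85 ± 0.23 SE, adjusted p = 0.00257). The labelled groups did not overlap, and WT1 lay with WT and tg2 with aADM2-tg. The list's median was -0.90 in the high-Foxj1 libraries alone (tg2 against 4 WT) and -1.13 in the low-Foxj1 libraries alone (4 transgenic against WT1), which share no library. Without WT1 0 members were called, at a median of -0.89, and 25 of 27 had a lower fitted value in aADM2-tg. Without tg2 15 were called lower.

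Cell cycle genes were lower too, with 13 of 26 called lower and 1 higher given the side, at a median of -1.08. Mki67, a marker of dividing cells named after its values were seen, was at 39.7, 61.4, 22.2, 32.3 and 29.5 CPM in WT1 to WT5 and at 8.64, 14.9, 9.36, 11.1 and 10.8 in tg1 to tg5 (edgeR adjusted p given side 0.00668). WT and aADM2-tg were apart in this gene also. The 1 member higher was Ccnd1 (fitted log2 difference 0.89 ± 0.20 SE, edgeR adjusted p = 0.0182), which was not called with the label alone (adjusted p = 0.237). Without tg2 5 cell cycle genes were called lower, and without WT2, WT3 and WT5, the libraries with germ cell RNA, 6 were. Of the macrophage markers 3 of 10 were lower and of the adipocyte progenitor markers 4 of 12 were lower and 3 higher. Without tg2 2 progenitor genes were lower and none higher. The red blood cell markers summed to 201 to 586 CPM in WT and to 235, 1155, 545, 425 and 667 CPM in tg1 to tg5, so that tg2 was highest and the groups overlapped. Given the side 3 of these 5 were called higher, at a median log2 difference of 1.36, and their globin genes include near-identical copies. Leaving out 1 library changed that count to between 0, without WT1 or without tg2, and 5, without WT2 or without tg1. The part of blood RNA in the label differences was not tested.

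For other lists the number of calls depended on the side. Of 12 heat shock genes 11 were called higher with the label alone and 3 with the side, at medians of 0.82 and 0.62. All 12 had a higher fitted value in aADM2-tg in both models. Hspb1, a small chaperone picked after its values were seen, was at 39.9, 22.6, 33.4, 30.7 and 37.1 CPM in WT1 to WT5 and at 204, 74.5, 137, 93.6 and 108 in tg1 to tg5 (edgeR adjusted p given side 0.00864). Its groups did not overlap, and tg2 was the lowest of its group. Early response genes went from 11 called higher to 1, adipocyte markers from 9 to 1 and lipolysis genes from 8 to 4. Of the male germ cell genes 10 were called lower with the label alone and none with the side, but 9 with the side when WT4 was left out. Heat shock calls given the side were 1 without tg2 and 9 without tg4. The difference between the models was not tested for any list.

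Ripk4, Cish, Sfrp5 and Cyp1a1 were among the genes chosen for the largest rises in aADM2-tg given the side. Cyp1a1, a target of the aryl hydrocarbon receptor, was at 1.33, 0.900, 1.24, 0.508 and 2.42 CPM in WT1 to WT5 and at 6.60, 7.25, 6.61, 5.98 and 16.1 in tg1 to tg5 (a log2 difference of 2.59 ± 0.48 SE, edgeR adjusted p = 0.00933). The groups did not overlap. Ripk4, a kinase of epithelia, was at 0.166 to 2.07 CPM in WT and 2.09 to 10.3 in aADM2-tg (edgeR adjusted p = 0.00668). Cish, a feedback inhibitor of cytokine signalling, was at 3.27 to 3.95 CPM in WT and at 50.2, 37.2, 8.98, 3.62 and 43.3 in tg1 to tg5, so that tg4 lay among the WT values (edgeR adjusted p = 0.0161). Sfrp5, a secreted inhibitor of WNT signalling in fat, was at 3.32 to 20.8 CPM against 11 to 79.6, where tg5 overlapped WT (edgeR adjusted p = 0.0376).

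Among the deepest falls were those of Atp8b3, Adam5, Serpinb2 and Art4. Serpinb2, an inhibitor of plasminogen activators, was at 5.09, 2.93, 2.66, 2.2 and 2.42 CPM in WT1 to WT5 and at 0.0549 to 0.900 in aADM2-tg (-3.14 ± 0.45 SE, edgeR adjusted p = 0.00426). It overlaps Serpinb10 on the same strand. Atp8b3 and Adam5, both known from sperm, were at 18.6 to 19.2 CPM and at 11.3 to 13.7 CPM in the germ cell RNA libraries WT2, WT3 and WT5, and at 0 to 1.98 CPM in the other 7, which is the division of the germ cell list. Without those 3 libraries neither was called. Art4 was at 0.941 to 4.78 CPM in WT and 0 to 0.374 in aADM2-tg, and it too was not called without them.

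Whether the label difference itself changed with the side was tested by an interaction term. No gene was called by edgeR, with 693 at unadjusted p under 0.05 (4.18% of those tested), in a design with 1 library in each of 2 cells. Over all tested genes the label difference within the high-Foxj1 libraries and that within the low-Foxj1 libraries, which share no library, had a Pearson correlation of 0.43 and a Spearman correlation of 0.51, and 70.3% had the same sign. The share of counts from the mitochondrial genome was 6.04 to 7.61% on the high side and 6.19 to 8.63% on the low. The mean exonic length of the gene behind a counted read was 5604 to 5900 bases in the high-Foxj1 libraries and 5703 in WT1, and 5257 to 5453 in tg1, tg3, tg4 and tg5. Length therefore moved with both side and label, and its part in the results was not tested.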

How the data were processed

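The deposited table holds, for 56691 genes, raw read counts of 10 libraries per the file headers, made with HISAT2 2.2.1 and HTSeq 0.6.1 per the submitters' processing notes. Build, annotation and strandedness: not given in the sources used here. A further 10 per-sample columns (FPKM) were not used. Groups came from the sample labels. Since title and description contradict each other for 3 transgenic mice, the names tg3, tg4 and tg5 follow the column names.

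CPM are counts per 1000000 counted reads. The counts were fitted in R 4.3.3 with edgeR 4.0.16 (TMM, filterByExpr by side, 16591 genes, quasi-likelihood F tests with Benjamini-Hochberg adjustment over all of them), with label and side as terms. The method had first been tried on simulated counts of this design with planted differences. There the counts did not choose the sides and no single library was shifted, so the trial covers neither. P-values measure the spread between these mice. Each ± SE belongs to a fitted log2 difference and was computed as its size over the square root of its F statistic. A bound against a group at 0 uses 3 counts in each library and covers counting error only, since the reads carry no molecular identifiers.

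Members, gene lists (28 lists, 410 entries, all found) and tests were chosen with earlier results of these data known. Named genes are the 5 markers, the 10 highest and 10 lowest called genes with no overlap between sides and a mean of at least 1 FPKM, computed from the counts, on the higher side, up to 3 called members of each list, and the 5 highest and 5 lowest of the label term. Predicted genes were left out, and some genes that the rule chose are not reported here. Of the named genes 9 overlap another gene that has at least 10% of their counts. Alternatives were DESeq2 size factors, DESeq2 1.42.0, no expression filter, a mean of at least 10 CPM, each library left out, the replicate number as a block, fits within 1 label or 1 side, and models with 1 term or a marker score. Where a fit leaves 1 library in a cell, that library is assumed to vary like the others. Leaving out WT2, WT3 and WT5, or WT3 and tg5, was chosen after seeing the data. Figures used matplotlib 3.10.9 in Python 3.11.15.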

Additional observations from a re-analysis of the deposited data

Results flagged for a closer look

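In each set of 5 libraries on 1 side, a library is listed here when its gap to the nearest other, over the range of the 5, exceeded Dixon's critical value of 0.71. The rule was applied to 160 groups of values and gave 16 cases. Chance alone flags about 1 in 20 groups, and a group near 0 can be listed for a handful of reads.

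The low-Foxj1 library tg5 stood above the other 4 in the sum of the 5 duct markers, at 6.55 CPM against 0.111 to 0.540, and in Pax8 (0.536 against 0 to 0.0554), Cdh16 (1.85 against 0) and Cldn2 (2.74 against 0 to 0.275 CPM). Foxj1 in tg5 was 0.0596 CPM, within the range of its side.

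The low-Foxj1 library WT1, the only WT library there, stood apart in the summed extracellular matrix list, at 20766 CPM against 8967 to 11196. It was low in the summed lipolysis list, at 13514 against 17144 to 18364 CPM. It was also highest in Meig1 (0.277 against 0), Adam5 (0.775 against 0.0600 to 0.220) and Serpinb2 (5.09 against 0.0549 to 0.900 CPM).

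The high-Foxj1 library tg2, the only aADM2-tg library there, was high in the summed heat shock list, at 3850 CPM against 2622 to 2711. It was high in Ripk4 (10.3 against 1.18 to 2.07), Cish (37.2 against 3.48 to 3.95) and Cyp1a1 (7.25 against 0.508 to 2.42 CPM), and low in Serpinb2 (0.366 against 2.2 to 2.93 CPM). WT1 and tg2 differ from the rest of their side by label, so these values are also the label differences within a side.

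WT2 was high in the summed cell cycle list, at 432 CPM against 244 to 280 in the other high-Foxj1 libraries. In Tcp11, tg4 was low at 0.0549 CPM against 0.240 to 0.312, which is 1 read.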

How the results depend on the processing

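The 1253 genes higher and 154 lower between the sides became 301 and 27 with a mean of at least 10 CPM, 2123 and 1733 with the side as the only term, 476 and 27 within WT and 844 and 5 within aADM2-tg. The lower genes became 236 with no expression filter, 395 with DESeq2, 33 without WT2, WT3 and WT5, and 259 without WT3 and tg5. Leaving out each library gave 443 to 1332 higher and 5 to 402 lower, with the lowest of both without tg2 and the highest without tg5. Without WT1 48 were lower, and without WT2 87. The label counts given side, 576 higher and 994 lower, became 2285 and 2107 with the label alone, 1093 and 1530 with the marker score, 6 and 3 within the high side, 2 and 44 within the low side, and 97 and 300 without WT2, WT3 and WT5. DESeq2 called 927 higher. Leaving out each library gave 0 to 699 higher and 0 to 1097 lower, with 0 without WT1 and 148 and 590 without tg2, and 360 higher without WT2. The interaction stayed at 0 calls when a library was left out, was not estimable without WT1 or tg2, and gave 2 with no expression filter. The median share of counts from genes near 0 on the low side, 0.128%, was 0.242% (300 genes) when up to 10 counts were allowed. With the replicate number as a block 506 genes were higher and 10 lower between the sides. Between the labels 127 were higher and 261 lower. Deviations of same-numbered libraries from their label means correlated at 0.49, 0.67, -0.38, -0.26 and 0.04, and 1 of 5 WT libraries was closest to its own number. Those label means leave the side difference in. Deviations from the fit of label and side correlated at -0.04, -0.08, 0.04, 0.01 and 0.01, so no pairing by the numbers used was seen. Title and description contradict each other on the numbers of tg3, tg4 and tg5. These correlations and the block fit therefore cannot decide whether mice were paired. Of 1162 values of named genes under these alternatives 948 kept direction and side of the threshold, 214 kept the direction only and 0 reversed. All but the markers were chosen as called in these same data, and some also for sides that did not overlap. The lack of reversals is therefore partly built in. The causes of the changes were not tested, beyond the smaller number of genes or libraries that an alternative leaves. Depth limits genes below 0.165 to 0.187 CPM.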

Other observations

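Genes also known from kidney epithelium that stand on none of the lists divided the libraries in the same way, and they were picked after their values were seen. Hnf4a, a transcription factor of absorptive epithelia, was at 23.6, 22.4, 21.6, 5.90 and 30.7 CPM in WT2 to WT5, then tg2, and at 0 to 0.187 CPM in the low-Foxj1 libraries. Kl, which encodes klotho, a receptor partner for a phosphate-regulating hormone, was at 4.94 to 17.3 CPM against 0 to 0.0596. Lcn2, an iron-binding protein of injured and inflamed epithelium, was at 34.1 to 123.2 CPM against 1.56 to 4.89. In all 3 genes tg2 was highest and WT5 lowest of the high-Foxj1 libraries.

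Cuzd1, known from pancreas and genital tract epithelium, was at 53.8, 54.7, 49.8, 32.1 and 89.6 CPM in the high-Foxj1 libraries and at 0 to 0.388 CPM in 4 of the others, but at 9.24 CPM in tg5. The protamine and transition protein genes, which pack sperm DNA, were read mainly from WT2, WT3 and WT5. Prm1 was at 31.1, 16.7 and 23.5 CPM there and Tnp1 at 23.0, 20.6 and 11.9 CPM. In the other 7 libraries Prm1 was at 0 to 0.790 and Tnp1 at 0 to 0.959 CPM.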
